A study of Homo sapiens with 9 samples.

Results

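ER-associated degradation (ERAD) is the route by which misfolded proteins leave the endoplasmic reticulum (ER) and are destroyed. The machinery described here comprises 41 human genes, listed by name. Each gene was represented by the brightest probe set whose annotation names that gene alone, taken over all 9 arrays. Such a probe set existed for 39 of the 41, against 19775 genes in the whole annotated array. SYVN1, which encodes the ubiquitin ligase HRD1 itself, and UBL4A had none and carry no value. All 39 passed the filter on low signals, and 37 of them lay above the array median on all 9 arrays. The exceptions were RNF5 and FBXO6.

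The study measured RNA of HEK293 cells, a human embryonic kidney line, after transient transfection with surfactant protein C. This protein, encoded by SFTPC, is a secreted lung protein whose natural source is the alveolar type II cell. The Ex4 group received the mutant that lacks exon 4, the LQ group received the mutant with the L188Q substitution, and the control group received the wild-type protein (WT). Each group had 3 Affymetrix arrays, every group carried a transfected SFTPC, and no untransfected or empty-vector cells are analysed here. The values are linear MAS5 signals, and each probe set has its own scale, so signals are compared only within a probe set. The marker sums below add signals over probe sets and are compared only between arrays. A kidney line is not the natural host of this protein. The arrays average transfected and untransfected cells, so fewer responding cells and a smaller change per cell cannot be told apart.

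In ERAD, lectins and mannosidases of the ER lumen recognise the trimmed sugars of a protein that has failed to fold. A ligase complex built around HRD1 and its partner SEL1L moves the protein across the membrane and attaches ubiquitin to it. The ATPase VCP then extracts it into the cytosol, where sugars and ubiquitin are removed and the proteasome degrades it. Several genes of this machinery are induced by the unfolded protein response, the signalling that is switched on when misfolded protein builds up in the ER.

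The transfected gene was checked first. The brightest SFTPC probe set (211735_x_at) read 97629.7 to 169241.4 on the Ex4 arrays, 108962.6 to 132057.7 on the LQ arrays and 173159.7 to 261955.2 on the WT arrays. Another SFTPC probe set (214387_x_at) read 914.4, 39.1 and 28.7 on Ex4 replicates 1, 2 and 3, against 158962.0 to 239964.0 on the WT arrays. Median signals were 316.1 to 434.3 on the Ex4 arrays, 303.9 to 371.8 on the LQ arrays and 506.4 to 524.4 on the WT arrays, although the trimmed means all lay between 1493.3 and 1494.8. Ex4 replicate 1 correlated on average at 0.906 with the other Ex4 arrays, 0.927 with the LQ arrays and 0.911 with the WT arrays. WT replicate 1 correlated less with the other WT arrays (0.892) than with the Ex4 (0.906) and LQ (0.907) arrays. WT replicates 2 and 3 correlated most with the other WT arrays (0.903 and 0.911). The ratio of 3' to 5' signal of GAPDH was 1.12 ± 0.14 in Ex4, 1.07 ± 0.016 in LQ and 1.31 ± 0.11 in WT cells (SD, n = 3). That of ACTB ran the other way, at 1.35 ± 0.18 in Ex4, 1.18 ± 0.041 in LQ and 1.13 ± 0.12 in WT cells (SD, n = 3). All 6 markers of the HEK293 list (PAX2, LHX1, VIM, KRT8, KRT18 and NEFM) lay above the array median on all 9 arrays, as did 1 of 5 blood, 1 of 5 fibroblast and 2 of 4 alveolar type II markers. The HEK293 markers summed to 123761 to 126726 in Ex4, 127537 to 138810 in LQ and 130247 to 170701 in WT cells. Bright probe sets weigh most in such sums: VIM and KRT18 in this list, and COL1A1 in the fibroblast list. Among the HEK293 markers PAX2 read 1149.5, 385.1 and 415.0 in Ex4 cells, 530.1, 535.5 and 407.8 in LQ cells, and 2026.4, 1533.2 and 2800.6 in WT cells. All mutant arrays lay below all WT arrays, with log2 differences of -1.82 in Ex4 and -2.04 in LQ cells (limma adjusted p = 0.0769 and 0.0254). The blood markers summed to 1537.9 to 1671.1 in Ex4, 1314.9 to 1555.2 in LQ and 2318.6 to 2974.6 in WT cells. The fibroblast markers summed to 4465.8 to 5985.2 in Ex4, 3183.2 to 4274.3 in LQ and 6434.6 to 7642.7 in WT cells, and the alveolar type II markers to 3018.8 to 3900.9 in Ex4, 3318.7 to 4363.2 in LQ and 3619.0 to 4259.8 in WT cells. No listed marker was at 0. The part of these differences in the results below was not tested.

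Across the machinery, 6 of the 39 genes rose in LQ cells against WT cells and none fell. These were HERPUD1, SEL1L and DERL1 of the HRD1 complex, the mannosidase-like gene EDEM3, the membrane scaffold gene ERLIN1 and the deubiquitinase gene YOD1, with fold changes between 1.49 and 2.40. The test was limma on log2(signal + 16) over all 9 arrays, with Benjamini-Hochberg adjusted p under 0.05. The 6 make up 15.4% of the machinery, beside 3.69% of all 14018 tested genes that rose and 3.63% that fell. The median change of the 39 genes was 0.19 on the log2 scale, beside -0.09 over all tested genes, and 25 of 39 changes were above 0 (64.1%, beside 43.6% of all genes). The call count was 0 without any single LQ array and 0 without WT replicate 2 or 3. In those 5 fits at most 0.114% of all genes rose. The count was 2 without Ex4 replicate 3 and 3 without Ex4 replicate 2, beside 2.87% and 3.25% of all genes that rose. Leaving out WT replicate 1 gave 7 genes that rose and 1 that fell, beside 9.97% and 7.8% of all genes. Leaving out Ex4 replicate 1 gave 6 that rose and 1 that fell, beside 6.42% and 7.62% of all genes.

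In Ex4 cells no gene of the machinery passed the same test against WT cells, and 0% of all genes did. At an unadjusted p under 0.05, 6 of the 39 were higher and 2 lower, beside 12.1% and 15.1% of all genes. The median change was 0.03, beside -0.08 over all genes, and 22 of 39 changes were above 0. Without Ex4 replicate 1, 4 genes rose and 1 fell, beside 5.69% and 8.1% of all genes. Without WT replicate 1, 5 genes rose and none fell, beside 8.59% and 5.2% of all genes. The comparisons of each mutant with WT share the WT arrays, so the values of both are given side by side for each gene. Whether the replicates came from separate cultures is not stated, so the p-values measure the spread between these arrays only, and the number of arrays limits the precision.

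**Figure D1:**
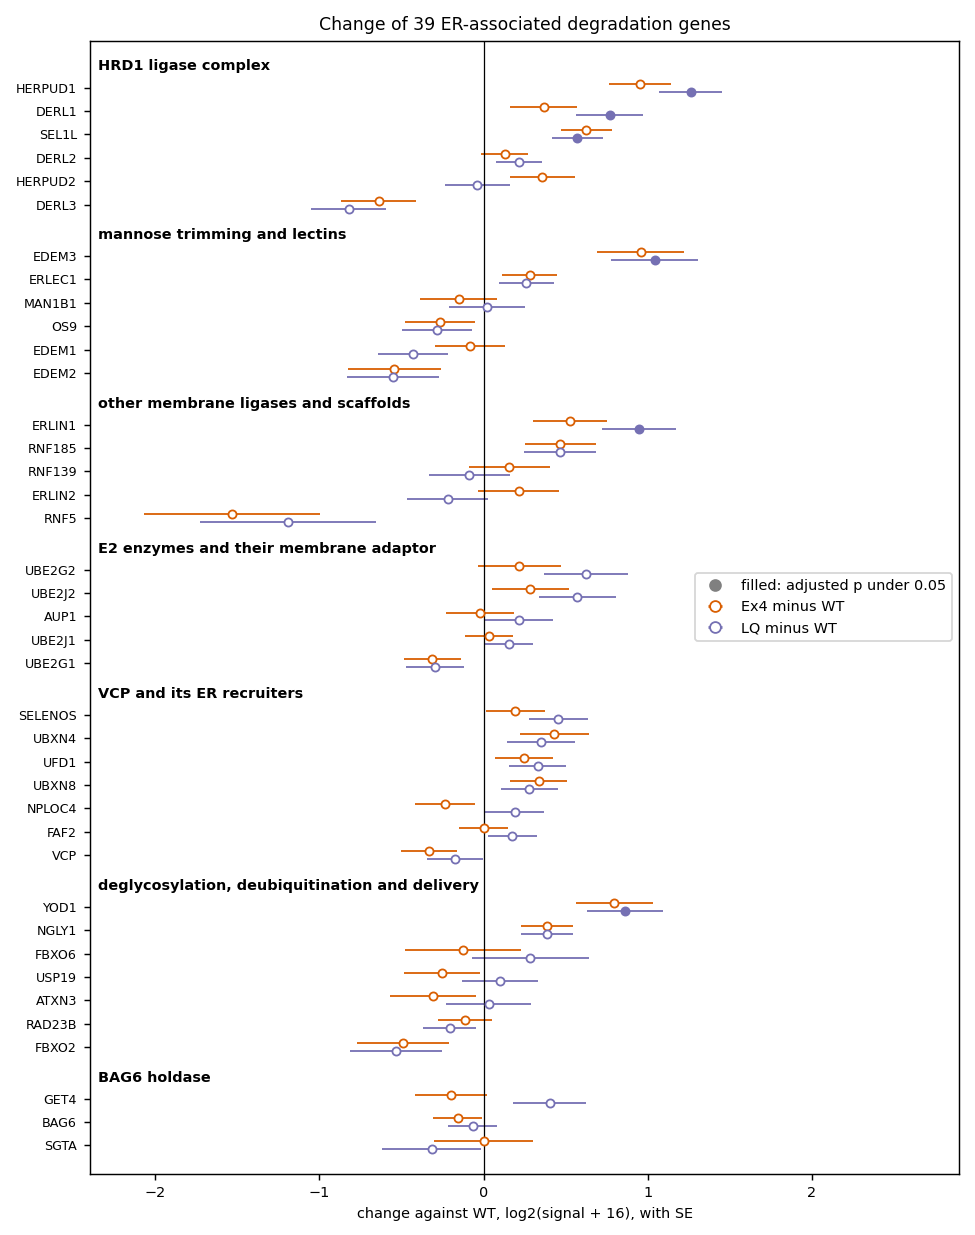
Change of each of the 39 ERAD genes against WT on the log2(signal + 16) scale (horizontal axis), by role (vertical axis), with Ex4 above LQ and bars for the standard error from limma. Filled points passed an adjusted p of 0.05: 6 LQ points are filled, all to the right of 0, and no Ex4 point is.

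The HRD1 ligase complex held 3 of the 6 genes that rose in LQ cells, among 6 measured members. HERPUD1 (217168_s_at) encodes an ER membrane protein with a ubiquitin-like domain that binds the HRD1 complex. Its signal was 6311.3, 9874.2 and 9300.9 on the Ex4 arrays, 9911.4, 10026.7 and 11093.5 on the LQ arrays, and 4637.7, 4633.6 and 3695.9 on the WT arrays. Every mutant array stood above every WT array, and every LQ array stood above every Ex4 array. HERPUD1 rose 2.40-fold in LQ cells, a log2 change of 1.26 ± 0.19 (SE, limma adjusted p = 0.0146). The change in Ex4 cells was 0.95 ± 0.19 (SE, limma adjusted p = 0.0763).

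SEL1L (202061_s_at) encodes the adaptor that stabilises HRD1 and brings substrates to it. Its signal was 7611.0, 7619.4 and 8260.0 on the Ex4 arrays, 7513.9, 7232.7 and 7875.1 on the LQ arrays, and 6033.8, 4537.4 and 4737.0 on the WT arrays. On this probe set both mutants lay above WT on every array and overlapped each other. The log2 change was 0.57 ± 0.16 in LQ cells (SE, limma adjusted p = 0.0495) and 0.63 ± 0.16 in Ex4 cells (SE, limma adjusted p = 0.0801). The larger estimate thus belongs to the mutant whose adjusted p missed the threshold. The other tested SEL1L probe sets had Ex4 changes of -0.42 and -0.19.

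Derlins are multi-spanning ER membrane proteins that take part in moving substrates out of the ER. DERL1 (219402_s_at) read 4702.8, 5733.6 and 6211.5 in Ex4 cells, 6129.0, 8013.8 and 7899.0 in LQ cells, and 3292.0, 4734.8 and 5009.8 in WT cells. The LQ arrays lay above all WT arrays, while the Ex4 and WT arrays overlapped. DERL1 rose by a log2 change of 0.77 ± 0.20 in LQ cells (SE, limma adjusted p = 0.0451), beside 0.37 in Ex4 cells (limma adjusted p = 0.279). DERL3 (229721_x_at) ran the other way, at 1224.0, 943.9 and 967.8 in Ex4 cells, 843.8, 887.6 and 1012.9 in LQ cells, and 1400.0, 1800.2 and 1703.8 in WT cells. All mutant arrays lay below all WT arrays, with log2 changes of -0.64 in Ex4 cells and -0.82 ± 0.23 in LQ cells (SE, limma adjusted p = 0.126 and 0.0511). When both mutants were set together against WT, DERL3 passed the test at -0.73 (limma adjusted p = 0.0391). Median centring of the arrays brought that value to -0.20 (limma adjusted p = 0.53). The suffix of the DERL3 probe set marks probes that can match other transcripts. The remaining members of the complex did not pass. DERL2 had log2 differences from WT of 0.13 in Ex4 and 0.22 in LQ cells, and HERPUD2, the homologue of HERPUD1, of 0.36 in Ex4 and -0.04 in LQ cells.

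**Figure D2:**
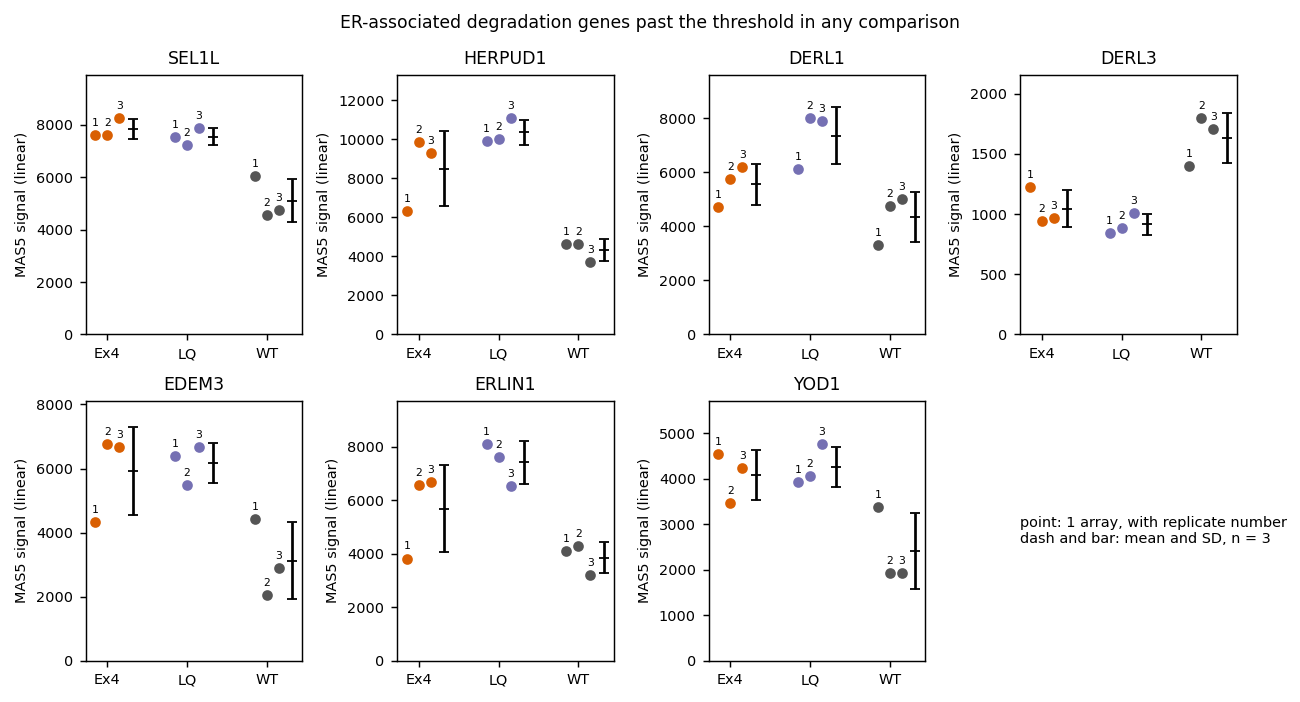
MAS5 signal (linear, vertical axis) of the 7 ERAD genes that passed the test in any comparison, per array in the Ex4, LQ and WT groups, each gene on its own scale. Points are arrays, numbered by replicate, and the dash and bar give the group mean and its SD (n = 3). HERPUD1 reads 9911.4 to 11093.5 on the LQ arrays, against 3695.9 to 4637.7 on the WT arrays, and DERL3 is the gene whose WT arrays are the highest.

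Promoter sequences of the machinery were searched for elements known from the unfolded protein response. RefSeq windows (GRCh38.p14, 250 bases before to 50 after the annotated start) were available for 31 of the 41 genes, as 36 windows among 35116 in all. The letters were searched on both strands. They were the ER stress response element (ERSE, CCAAT and CCACG with 9 free bases between them), ERSE-II (ATTGG and CCACG with 1 free base between them), the UPRE core (TGACGTGG) and the amino acid response element core (TGATGNAA). None of the 36 windows held the exact ERSE, which 0.0769% of all windows held. ERSE-II occurred in 1 of the 36, HERPUD1, beside 0.0541% of all windows. The HERPUD1 window also held the amino acid response element core on the opposite strand (3.62% of all windows), and UBE2J1 and VCP held the UPRE core (0.729%). ERSE with 1 fixed letter different, a search added after the data were seen, matched HERPUD1, SEL1L and SYVN1, or 8.33% of the 36 windows beside 1.48% of all. Of the genes that rose in LQ cells, DERL1 and ERLIN1 had no window and were not searched. EDEM3 and YOD1 had 1 window each and no match. The windows of HERPUD1 (chr16:56931892-56932191, plus strand) and SEL1L (chr14:81533804-81534103, minus strand) are shown because both had a match and both rose in LQ cells. Capitals mark the matches. In HERPUD1 these run from -176 to -169 (amino acid response element core, opposite strand), -117 to -107 (ERSE-II) and -83 to -65 (ERSE with 1 letter different), counted from the start. In SEL1L the match runs from -207 to -189.
HERPUD1: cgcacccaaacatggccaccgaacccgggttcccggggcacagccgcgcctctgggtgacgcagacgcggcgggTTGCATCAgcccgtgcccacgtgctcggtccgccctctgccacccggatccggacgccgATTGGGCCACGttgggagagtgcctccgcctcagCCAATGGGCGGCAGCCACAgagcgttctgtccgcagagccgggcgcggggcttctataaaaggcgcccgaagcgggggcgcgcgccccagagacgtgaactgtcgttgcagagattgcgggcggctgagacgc
SEL1L: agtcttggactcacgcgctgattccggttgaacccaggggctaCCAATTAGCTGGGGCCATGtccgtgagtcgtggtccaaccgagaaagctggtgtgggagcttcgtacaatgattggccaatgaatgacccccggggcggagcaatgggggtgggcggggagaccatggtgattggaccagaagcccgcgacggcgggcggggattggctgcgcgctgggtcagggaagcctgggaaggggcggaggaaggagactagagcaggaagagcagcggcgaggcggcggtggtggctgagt
The 3 stretches that match ERSE with 1 fixed letter different are aligned here with the 9 free bases in lower case, SYVN1 being the HRD1 gene that has no probe set of its own.
HERPUD1: CCAATgggcggcagCCACA
SEL1L: CCAATtagctggggCCATG
SYVN1: CCATTgctatgggcCCACG
A match is a description of letters and not evidence of binding.

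Among the genes of mannose trimming and sugar recognition, 1 of 6 rose in LQ cells. EDEM3 (223243_s_at) encodes a relative of the ER mannosidases that marks glycoproteins for degradation. Its signal was 4329.6, 6761.1 and 6664.9 on the Ex4 arrays, 6376.0, 5480.8 and 6666.5 on the LQ arrays, and 4418.7, 2065.1 and 2886.5 on the WT arrays. The LQ arrays lay above all WT arrays, whereas Ex4 replicate 1 lay below WT replicate 1. The log2 change was 1.04 ± 0.27 in LQ cells (SE, limma adjusted p = 0.0417) and 0.96 ± 0.27 in Ex4 cells (SE, limma adjusted p = 0.0869). Its relative EDEM1 (203279_at) read 2672.8, 2459.0 and 2949.2 in Ex4 cells, 2184.4, 2276.8 and 1892.6 in LQ cells, and 3067.1, 3524.4 and 2135.8 in WT cells. The LQ arrays of EDEM1 lay below all Ex4 arrays and overlapped the WT arrays, with changes against WT of -0.08 in Ex4 and -0.43 in LQ cells (limma adjusted p = 0.837 and 0.205). EDEM2 had log2 differences from WT of -0.54 in Ex4 and -0.55 in LQ cells. The lectins OS9 and ERLEC1, which read the trimmed sugars, had log2 differences from WT of -0.27 and 0.28 in Ex4 cells and of -0.29 and 0.26 in LQ cells. The ER mannosidase gene MAN1B1 had log2 differences from WT of -0.15 in Ex4 and 0.02 in LQ cells, and none of these passed.

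The other membrane ligases and scaffolds included 1 gene of 5 that rose in LQ cells. ERLIN1 (202441_at) encodes a prohibitin-family protein of the ER membrane that takes part in the degradation of inositol trisphosphate receptors. Its signal was 3825.6, 6578.7 and 6675.4 in Ex4 cells, 8104.0, 7605.8 and 6547.6 in LQ cells, and 4089.9, 4282.9 and 3196.8 in WT cells. All LQ arrays exceeded all WT arrays, while Ex4 replicate 1 lay within the WT range. The log2 change was 0.95 ± 0.23 in LQ cells (SE, limma adjusted p = 0.0362) and 0.53 in Ex4 cells (limma adjusted p = 0.177). Its partner ERLIN2 had log2 differences from WT of 0.21 in Ex4 and -0.22 in LQ cells. RNF5 (216018_at), a membrane-anchored ubiquitin ligase gene, read 489.1, 103.9 and 298.2 in Ex4 cells, 407.3, 270.9 and 302.0 in LQ cells, and 447.1, 866.6 and 1115.1 in WT cells. These signals lay below the array median on some arrays of every group. LQ lay below WT on every array, Ex4 overlapped WT, and the changes were -1.53 ± 0.54 in Ex4 and -1.19 ± 0.54 in LQ cells (SE, limma adjusted p = 0.121 and 0.165). The ligase genes RNF185 and RNF139 had log2 differences from WT of 0.47 and 0.16 in Ex4 cells and of 0.47 and -0.09 in LQ cells.

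None of the 5 genes for ubiquitin-conjugating (E2) enzymes and their adaptor passed the test on its brightest probe set. UBE2J2 (225209_s_at), a membrane-anchored E2, read 4065.2, 7616.3 and 6536.8 in Ex4 cells, 6898.1, 7051.3 and 7554.2 in LQ cells, and 3851.0, 4903.2 and 5916.8 in WT cells. The LQ arrays lay above all WT arrays, and the changes were 0.28 in Ex4 and 0.57 in LQ cells (limma adjusted p = 0.467 and 0.133). UBE2G2 (209042_s_at), the cytosolic E2 that serves HRD1 and other ERAD ligases, read 7444.5, 7624.8 and 5381.2 in Ex4 cells, 9782.5, 8802.6 and 8229.9 in LQ cells, and 9149.2, 4831.1 and 4377.3 in WT cells. WT replicate 1 stood far above the other WT arrays, so LQ overlapped WT, and the changes were 0.22 in Ex4 and 0.62 in LQ cells (limma adjusted p = 0.62 and 0.133). AUP1, which recruits UBE2G2 to the membrane, had log2 differences from WT of -0.02 in Ex4 and 0.22 in LQ cells. UBE2J1 and UBE2G1 had log2 differences from WT of 0.03 and -0.31 in Ex4 cells and of 0.15 and -0.30 in LQ cells.

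VCP and its ER recruiters gave 6 positive changes of 7 in LQ cells and 5 of 7 in Ex4 cells, and none passed. The median change of the 7 was 0.28 in LQ and 0.19 in Ex4 cells. Over all tested genes the medians were -0.09 and -0.08, with 43.6% of changes above 0 in each. In the brightest of 4 equal classes of all genes by mean signal, the medians were 0.15 and 0.12. UFD1 (209103_s_at), a cofactor through which VCP grips ubiquitin chains, read 15832.2, 20930.4 and 22044.7 in Ex4 cells, 19446.0, 20538.3 and 21830.8 in LQ cells, and 13321.2, 17535.3 and 18731.6 in WT cells. LQ lay above WT on every array and Ex4 did not, with changes of 0.25 in Ex4 and 0.33 in LQ cells (limma adjusted p = 0.397 and 0.227). SELENOS (223209_s_at), a selenoprotein that links VCP to the derlins, read 22883.2, 23904.7 and 21976.7 in Ex4 cells, 26753.1, 28254.1 and 27462.3 in LQ cells, and 15095.5, 25929.3 and 20496.5 in WT cells. The LQ arrays were the 3 highest of the 9, and the changes were 0.19 in Ex4 and 0.46 in LQ cells (limma adjusted p = 0.521 and 0.12). The ATPase gene VCP itself had log2 differences from WT of -0.33 in Ex4 and -0.17 in LQ cells. NPLOC4, the partner of UFD1, had log2 differences from WT of -0.23 in Ex4 and 0.19 in LQ cells. The membrane recruiters UBXN4, UBXN8 and FAF2 had log2 differences from WT of 0.43, 0.34 and 0.00 in Ex4 cells and of 0.35, 0.28 and 0.18 in LQ cells.

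Downstream of extraction, 1 gene of 7 rose in LQ cells. YOD1 (227309_at) encodes a deubiquitinase that works with VCP. Its signal was 4540.4, 3465.0 and 4230.2 in Ex4 cells, 3934.6, 4066.6 and 4757.4 in LQ cells, and 3382.6, 1923.2 and 1927.7 in WT cells. Both mutants lay above WT on every array, with WT replicate 1 close to the lowest Ex4 array. The log2 change was 0.86 ± 0.23 in LQ cells (SE, limma adjusted p = 0.0472) and 0.80 ± 0.23 in Ex4 cells (SE, limma adjusted p = 0.0907). NGLY1 (220742_s_at), the cytosolic enzyme that strips N-linked sugars from extracted proteins, read 4797.7, 5273.5 and 4913.7 in Ex4 cells, 5234.1, 4778.6 and 4967.5 in LQ cells, and 4365.8, 3429.1 and 3701.4 in WT cells. All 6 mutant arrays exceeded all 3 WT arrays, at a change of 0.39 in each mutant (limma adjusted p = 0.164 in Ex4 and 0.135 in LQ cells). FBXO2, a sugar-binding subunit of a ubiquitin ligase, lay below WT on every mutant array, at 435.9 to 555.4 in Ex4, 492.1 to 495.8 in LQ and 713.0 to 725.3 in WT cells. Its changes were -0.49 in Ex4 and -0.53 in LQ cells (limma adjusted p = 0.292 and 0.229). The FBXO2 probe set (219305_x_at) has the same suffix as that of DERL3. FBXO2 was in the dimmest of the 4 classes by mean signal, where the median over all genes was -0.61 in Ex4 and -0.68 in LQ cells. FBXO6, its relative, had log2 differences from WT of -0.12 in Ex4 and 0.29 in LQ cells. The deubiquitinase genes ATXN3 and USP19 had log2 differences from WT of -0.31 and -0.25 in Ex4 cells and of 0.03 and 0.10 in LQ cells, and the proteasome shuttle RAD23B of -0.11 in Ex4 and -0.21 in LQ cells.

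The BAG6 holdase keeps extracted hydrophobic proteins soluble, and none of its 3 measured genes passed. GET4 (224808_s_at), a subunit of the BAG6 complex, read 2127.6, 1776.1 and 1831.7 in Ex4 cells, 3107.3, 3513.3 and 2230.1 in LQ cells, and 2661.2, 1928.7 and 2040.3 in WT cells. LQ lay above Ex4 on every array and both overlapped WT, with changes against WT of -0.20 in Ex4 and 0.40 in LQ cells (limma adjusted p = 0.606 and 0.247). SGTA (201396_s_at), a co-chaperone that hands substrates to the complex, read 1736.7, 2169.9 and 3784.0 in Ex4 cells, 1682.7, 1813.6 and 2402.8 in LQ cells, and 2689.7, 3029.1 and 1746.5 in WT cells. The 3 groups overlapped, and the changes were 0.00 in Ex4 and -0.32 in LQ cells (limma adjusted p = 0.999 and 0.508). BAG6 itself had log2 differences from WT of -0.16 in Ex4 and -0.07 in LQ cells.

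Counting direction on every array gave another view of the 39 genes. In LQ cells 14 genes had all LQ arrays above all WT arrays and 3 had all below, beside 15.7% and 23.2% of all genes. As a share, the 14 are 35.9% of the machinery. Besides the 6 genes that rose, these were DERL2, ERLEC1, UBE2J2, UFD1, UBXN8, FAF2, SELENOS and NGLY1, and the 3 below were DERL3, RNF5 and FBXO2. In Ex4 cells 4 genes lay wholly above WT (HERPUD1, SEL1L, YOD1 and NGLY1) and 4 wholly below (DERL3, EDEM2, FBXO2 and BAG6), beside 9.07% and 14.9% of all genes. Over both mutants, HERPUD1, SEL1L, YOD1 and NGLY1 stood above all WT arrays and DERL3 and FBXO2 below, beside 6.79% and 11.6% of all genes.

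**Figure D3:**
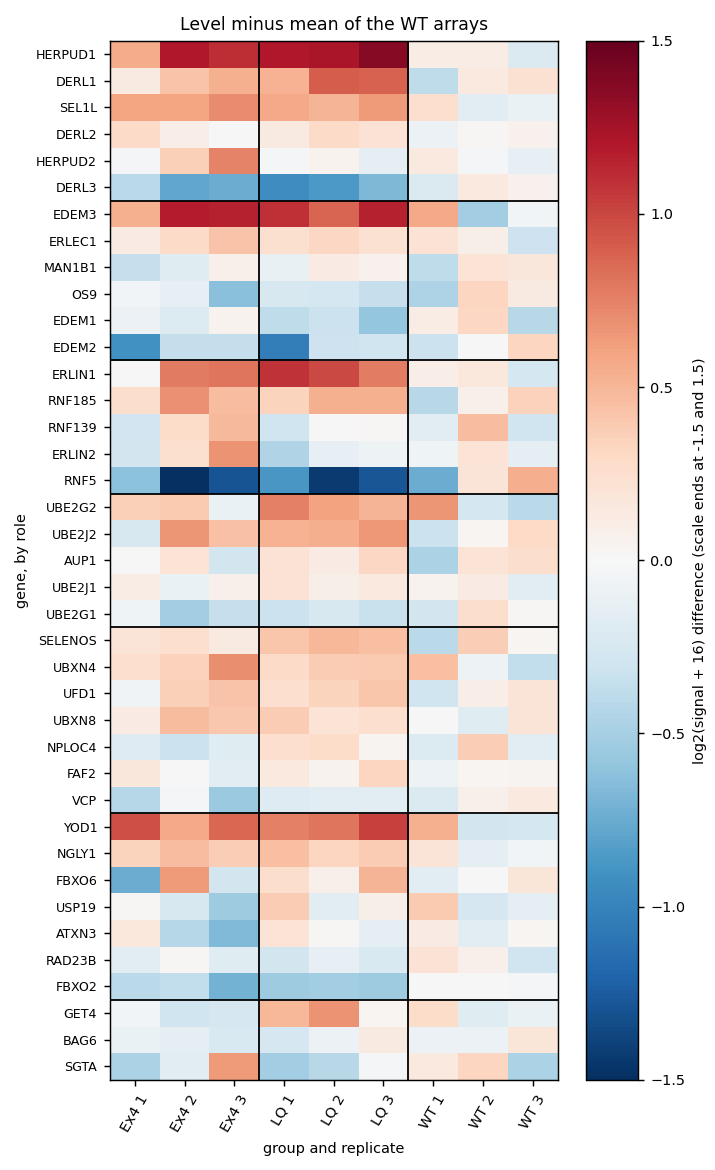
Level of each of the 39 ERAD genes (vertical axis, by role) on each of the 9 arrays (horizontal axis, Ex4, LQ, WT) minus the mean of the WT arrays, on the log2(signal + 16) scale. Colours end at -1.5 and 1.5. HERPUD1, SEL1L and YOD1 are above the WT mean on all 6 mutant arrays, and DERL3 is below it on all 6.

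The contrast of both mutants with WT drew on all 9 arrays. In it 5 genes rose (HERPUD1, SEL1L, EDEM3, ERLIN1 and YOD1) and 1 fell (DERL3), beside 6.22% and 6.72% of all genes. HERPUD1 rose by 1.11 (limma adjusted p = 0.0144), EDEM3 by 1.001 (limma adjusted p = 0.027), YOD1 by 0.83 (limma adjusted p = 0.0299), ERLIN1 by 0.74 (limma adjusted p = 0.0369) and SEL1L by 0.60 (limma adjusted p = 0.0264). DERL1 missed the threshold at 0.57 (limma adjusted p = 0.0544). Without WT replicate 2 or WT replicate 3 no gene of the machinery passed, and 0.0499% and 0.0856% of all genes rose. Without 1 LQ array, or without Ex4 replicate 2 or 3, 1 to 3 genes rose and none fell, beside 0.585% to 2.18% of all genes that rose. Without WT replicate 1, 8 rose and 3 fell, beside 11.8% and 10.5% of all genes. Without Ex4 replicate 1, 7 rose and 2 fell, beside 9.98% and 13.1% of all genes.

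The mutants were also compared with each other. No gene of the machinery passed between LQ and Ex4 cells by limma's adjusted p, nor did any of all genes (0%). At an unadjusted p under 0.05, GET4 and NPLOC4 were higher in LQ cells, beside 2.19% of all genes, and none was lower, beside 2% of all genes. GET4 differed by 0.60 (95% interval 0.12 to 1.08, unadjusted p = 0.0188, limma adjusted p = 0.9999), and NPLOC4 by 0.42 (95% interval 0.03 to 0.82). All LQ arrays lay above all Ex4 arrays for HERPUD1, UBE2G2, NPLOC4, SELENOS and GET4 and below them for EDEM1, beside 5.91% and 6.47% of all genes. For HERPUD1 the difference was 0.31 (95% interval -0.11 to 0.72), so the larger change in LQ than in Ex4 cells was not resolved by the test. DERL1 and ERLIN1 differed by 0.40 and 0.42 (95% intervals -0.04 to 0.84 and -0.07 to 0.91).

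The signal level of the genes moved with their changes. Tested genes were divided into 4 equal classes by mean signal, and 20 of the 39 ERAD genes fell in the brightest class and 12 in the next. In the brightest class the median LQ change was 0.24 for the ERAD genes and 0.15 for all genes. In Ex4 cells these medians were 0.16 and 0.12. In the next class they were 0.19 and 0.07 in LQ cells, and 0.27 and 0.06 in Ex4 cells. In the dimmest class the median over all genes was -0.68 in LQ and -0.61 in Ex4 cells. That class held 2 ERAD genes, RNF5 and FBXO2, with medians of -0.86 in LQ and -1.01 in Ex4 cells. The lower median signal of the mutant arrays moved with these changes, and its part was not tested. Centring each array on its median added 0.58 to every LQ change and 0.49 to every Ex4 change. With that scaling 21 of 39 genes rose in LQ cells (28.9% of all genes) and 13 in Ex4 cells (18.5% of all genes), with none lower in either. With quantile normalization only HERPUD1 passed in LQ cells (limma adjusted p = 0.0192), beside 1.87% of all genes that rose.

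**Figure D4:**
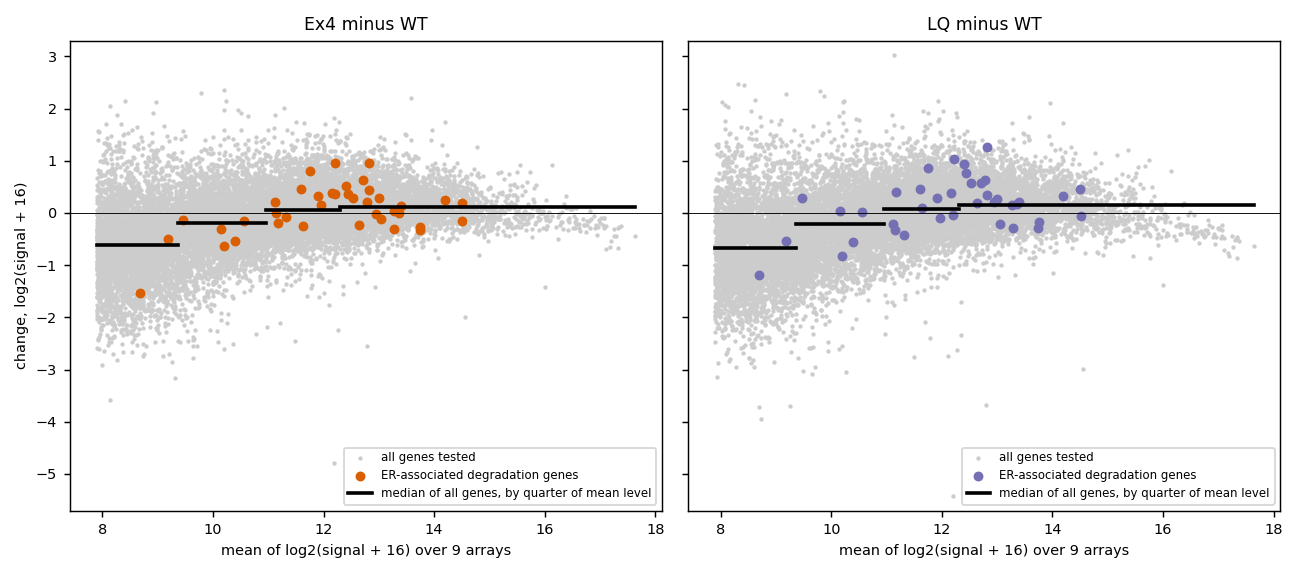
Change against WT on the log2(signal + 16) scale (vertical axis) against the mean log2(signal + 16) over the 9 arrays (horizontal axis), for Ex4 on the left and LQ on the right. Small grey points are all 14018 tested genes, larger points the 39 ERAD genes, and black lines the median of all genes in each class of mean signal. Dim genes lie mostly below 0, and the brightest class has a median of 0.12 in Ex4 and 0.15 in LQ cells.

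Most genes had more than 1 probe set, and these did not always move together. The array holds 96 probe sets that name 1 ERAD gene alone, of which 82 were tested. Among the 23 genes with more than 1 tested probe set, all had the same sign in LQ cells for 9 genes and in Ex4 cells for 7. For SEL1L the other probe sets had log2 differences from WT of -0.41 and 0.44 in LQ cells, and for ERLIN1 the second had a difference of -0.23. The other probe sets of DERL1 had log2 differences from WT of 0.56, 0.49 and -0.77 in LQ cells. The last came from a dim probe set whose signals ran from 58.2 to 782.1 (SE 0.76, limma adjusted p = 0.522). The other probe sets of EDEM3 had log2 differences from WT of 0.64 and 1.08 in LQ cells, and that of YOD1 of 0.38. HERPUD1's second probe set was below the filter. Away from the brightest probe sets, 1 of UBE2G2 rose in LQ cells (0.89, limma adjusted p = 0.027), as did 1 of RAD23B (2.82-fold, limma adjusted p = 0.0463), whose brightest probe set had a log2 difference of -0.21. A second probe set of DERL3 fell (-1.20, limma adjusted p = 0.033), the same direction as the first. In all, 8 of the 82 probe sets rose and 1 fell in LQ cells, beside 3.09% and 3.72% of all tested probe sets. When a gene's probe sets were averaged, those below the filter included, no ERAD gene passed in any of the comparisons with WT. In LQ cells 1.89% of all genes then rose. HERPUD1 had an averaged log2 difference of 0.49 in LQ cells (limma adjusted p = 0.321). That value averages 1.26 with the -0.28 of its second probe set, which lay above the array median on no array.

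**Figure D5:**
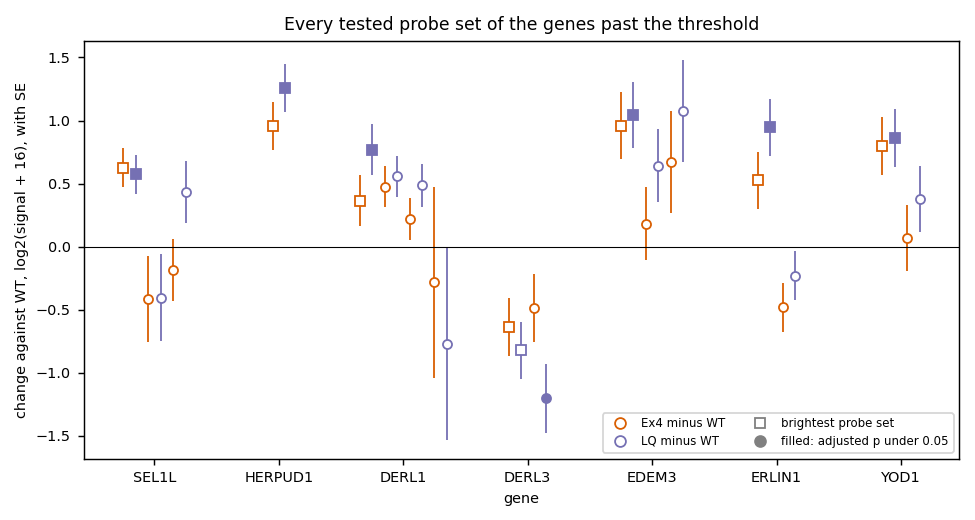
Change against WT on the log2(signal + 16) scale of every tested probe set of the 7 ERAD genes that passed in any comparison (vertical axis, genes along the horizontal axis), for Ex4 and LQ, with bars for the standard error. Squares are the brightest probe sets and filled symbols passed the test. SEL1L, DERL1 and ERLIN1 each have a probe set below 0 in LQ cells (-0.41, -0.77 and -0.23), none of which passed, while those of EDEM3 and YOD1 lie above 0. The DERL1 probe set below 0 is dim, with a standard error of 0.76.

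A further 50 genes of the same pathway were listed, of which 46 had a probe set of their own and all 46 were tested. In LQ cells 2 of them rose and none fell, a share of 4.35% that was near the 3.69% of all genes that rose. CAMLG, a subunit of the receptor that inserts tail-anchored proteins into the ER membrane, read 4168.8, 7237.9 and 5997.4 in Ex4 cells, 5902.7, 5580.6 and 5974.7 in LQ cells, and 3842.7, 2723.8 and 3114.5 in WT cells. All 6 mutant arrays exceeded the WT arrays, and the log2 difference of CAMLG was 0.86 ± 0.21 in LQ cells (SE, limma adjusted p = 0.0393) and 0.82 ± 0.21 in Ex4 cells (SE, limma adjusted p = 0.0812). SDF2L1, a partner of ER lumenal chaperones, read 2341.7, 4799.4 and 3892.7 in Ex4 cells, 3931.0, 4610.0 and 6007.4 in LQ cells, and 2612.5, 2439.2 and 2386.6 in WT cells. LQ lay above WT on every array and Ex4 replicate 1 did not, with changes of 0.94 ± 0.25 in LQ cells (SE, limma adjusted p = 0.0477) and 0.51 in Ex4 cells (limma adjusted p = 0.238). In Ex4 cells none of the 46 passed. Over both mutants CAMLG (0.84) and the deubiquitinase gene USP25 (0.71) rose (limma adjusted p = 0.0247 and 0.0407). GET3, the cytosolic ATPase of the same insertion route as CAMLG, fell by 0.60 on the log2 scale (limma adjusted p = 0.0361). These calls were 4.35% higher and 2.17% lower of the 46, below the 6.22% and 6.72% of all genes. The median change of the 46 in LQ cells was 0.03, with 25 above 0, beside 0.19 for the 39 genes and -0.09 for all genes.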

How the data were processed

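The deposited values are linear intensities, made by the authors with MAS5, per the submitters' processing notes, which give no version. MAS5 sets perfect-match against mismatch probes and brings all arrays to 1 target mean, and that scaling was kept. Values were used as log2(value + 16), a scale on which the changes of dim probe sets are understated. Of the non-control probe sets, the 32768 with a mean at or above percentile 40 were tested. limma 3.58.1 (R 4.3.3) was fitted to all 9 arrays with a mean per group, empirical Bayes moderation and a variance trend. Two-sided p-values were adjusted by Benjamini-Hochberg over all tested probe sets in each contrast, with a threshold of 0.05. The script was tested on simulated data. No set test was run.

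Symbols came from the platform annotation, updated through a RefSeq table. Values on each array are given for the members past the threshold in any contrast and, in each role group, for the 2 with the smallest p in LQ against WT. Further members are described by their changes. Of the other pathway genes, at most the 4 with the smallest p in each contrast were named. The members and lists were chosen with earlier results of these data known. Promoter letters were taken from RefSeq windows of GRCh38.p14, and the probe sets were given no coordinates. Alternatives were pseudocounts of 1 and 64, quantile normalization, median centring, no filter, a filter at percentile 60, array weights, a fit without the variance trend, a block for the replicate number, a fit to only the arrays compared, averaging the probe sets of a gene, a 2-fold minimum and each array left out in turn.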

Additional observations from a re-analysis of the deposited data

How the results depend on the processing

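The settings are named with the comparison, and medians are of the 39 log2 changes. With quantile normalization 1 ERAD gene passed in LQ against WT and 3 in both mutants against WT, with medians of 0.056 and 0.042. All were higher, beside 1.87% and 4.04% of all genes that rose. With median centring 13 passed in Ex4, 21 in LQ and 21 in both mutants against WT, all of them higher. In these comparisons 18.5%, 28.9% and 33.0% of all genes rose. The medians were 0.52, 0.77 and 0.63 (0.18 in LQ against Ex4). Genes without overlap with WT numbered 16, 28 and 16, all of them higher (30.8%, 47.0% and 28.0% of all genes higher). Centring turned EDEM1 to 0.40 in Ex4, 0.15 in LQ and 0.28 in both, GET4 to 0.29 in Ex4, SGTA to 0.27 in LQ and 0.38 in both, and, in LQ against Ex4, SEL1L to 0.040 and NGLY1 to 0.093. Without a filter 3 genes passed in LQ, all higher, beside 1.7% of all genes that rose. At percentile 60 the Ex4 median was 0.13. Without the variance trend 1 passed in LQ, higher, beside 0.335% of all genes that rose. In both mutants 1 was then higher and 1 lower, beside 1.31% and 3.3% of all genes. With a 2-fold minimum 2 passed in LQ and 2 in both, and the share of all genes was not counted. Array weights gave 8 in Ex4 (6 higher), 12 in LQ (10 higher) and 13 in both (10 higher), or 20.5%, 30.8% and 33.3%, while 9.26%, 13.6% and 14.1% of all genes were called higher and 9.05%, 15% and 16.1% lower. They turned EDEM1 in Ex4 to 0.065, SGTA in both to 0.061 and EDEM3 in LQ against Ex4 to -0.058. Averaging the probe sets of a gene gave 0 in LQ and 0 in both, with medians of 0.10 and 0.029. Of all genes, 1.89% and 3.25% then rose. It turned SEL1L in Ex4 to -0.18 and in LQ against Ex4 to 0.39, UBE2J2 to -0.13 in Ex4 and -0.044 in both, GET4 to -0.39 in LQ, -0.33 in both and -0.12 in LQ against Ex4, and NGLY1 in LQ against Ex4 to 0.12.

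With each array left out in turn, 0 to 5 genes passed in Ex4, 0 to 8 in LQ, none in LQ against Ex4 and 0 to 11 in both. In the same fits up to 8.59% of all genes were called higher and up to 8.1% lower in Ex4, 9.97% and 7.8% in LQ, and 11.8% and 13.1% in both. The medians ran from 0.0069 to 0.15 in Ex4, 0.11 to 0.24 in LQ, 0.033 to 0.13 in LQ against Ex4 and 0.074 to 0.16 in both. Genes without overlap numbered 8 to 22 in Ex4, 6 to 16 in LQ against Ex4 and 6 to 16 in both, of which 4 to 14, 5 to 11 and 4 to 11 were higher. Of all genes, 9.07% to 19.7% were then wholly higher and 14.9% to 28.5% wholly lower in Ex4, 5.91% to 14.2% and 6.47% to 17.1% in LQ against Ex4, and 7.14% to 16.7% and 12.1% to 23.7% in both. Signs changed for EDEM1 (-0.29 to 0.069), SELENOS (-0.0091 to 0.38) and SGTA (-0.32 to 0.24) in Ex4, and for SGTA in both (-0.39 to 0.0022). In LQ against Ex4 they changed for EDEM3 (-0.13 to 0.20), UFD1 (-0.062 to 0.18), RNF5 (-0.24 to 0.80), NGLY1 (-0.035 to 0.039), YOD1 (-0.048 to 0.15) and SGTA (-0.56 to 0.0012). Of the LQ calls, HERPUD1 and ERLIN1 held in 4 of the 9 fits each, EDEM3 in 3, SEL1L and YOD1 in 2 each and DERL1 in 1. The cause of these differences was not tested, and neither was the part of the smaller number of arrays.

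With the replicate number as a block, 5 genes passed in LQ and 0 in Ex4, beside 3.77% and 0% of all genes that rose. In both mutants 6 rose and 1 fell, beside 6.84% and 6.71% of all genes. SEL1L in LQ moved to a limma adjusted p of 0.0541 and DERL1 in both to 0.0305. Same-numbered arrays had correlations of their deviations between -0.083 and 0.191, and differently numbered arrays between -0.229 and 0.164. Between LQ and WT the same-numbered pairs had 0.173, 0.104 and 0.074, and the highest other pair 0.035. Between Ex4 and WT the same-numbered pairs had -0.071, 0.01 and -0.083, and the highest other pair 0.11. Whether the numbers pair the samples was not tested. Pseudocounts of 1 and 64 and a fit on only the arrays compared left each count of calls within 1.5 times. MAS5 detection calls were not used here, so whether a dim probe set was above background was not assessed.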
